A study of Mus musculus with 2 samples.

Results

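The 10 genes described here encode the repressors and the main output factors of the mammalian circadian clock, together with the activator Clock. They were chosen by name, as Clock, Per1, Per2, Per3, Cry1, Cry2, Nr1d1, Nr1d2, Dbp and Tef, and all 10 were found among the 44291 genes measured in each library. RNA-seq was performed on primary FAPs (fibro-adipogenic progenitors), the resident muscle mesenchymal cells from which adipocytes can form, sorted from the hind limb muscle of wild-type mice. The study used C57BL/6 mice bought at 6 to 8 weeks of age. One culture was treated with platelet-rich plasma (PRP) from human blood and the other with vehicle as control, and both were cultured in the same adipogenic induction medium that held insulin at 10 μg/ml, dexamethasone at 0.25 μM, the phosphodiesterase inhibitor IBMX at 0.5 mM, and 20% FBS. The study's text describes treatment with exosomes isolated from PRP, whereas the sample labels name PRP, so the libraries are called PRP and control as labelled. Each group is 1 library. The number of animals pooled for these cultures and the hour of harvest are not given in the sources used here.

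In the circadian clock, the activators CLOCK and BMAL1 bind E-box sequences and switch on the Per and Cry genes, whose proteins return to the nucleus and repress their own activators. A second loop is formed by the nuclear receptors REV-ERBα and REV-ERBβ, encoded by Nr1d1 and Nr1d2, which repress the BMAL1 gene Arntl. The PAR bZIP factors DBP and TEF carry the rhythm to output genes through D-box sequences. In cultured cells dexamethasone and cAMP-raising agents such as IBMX are known to induce Per1 and to set the phase of the clock, and REV-ERBα is known for its part in adipogenesis. Each library is a single time point, so these data hold levels and no rhythm.

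The libraries held 40120843 (PRP) and 34139741 (control) reads assigned to genes. The values are FPKM, which scales reads to exon length and to the assigned reads of the library, so levels can be set side by side between genes. The length is that of all annotated exons of a gene together, which can exceed the transcript expressed. Counting intervals do not cover this limit on comparisons between genes. The log2 fold change is log2(PRP FPKM + 1) minus log2(control FPKM + 1), which understates the change of low genes, and a gene counts as tested at a mean FPKM of at least 1. With 1 library per group no test between treatments is possible. The interval given with a ratio is an exact Clopper-Pearson 95% interval that covers counting error only and compares these 2 libraries. All 8 FAP markers examined were above 1 FPKM in both libraries, and all 8 had lower values with PRP, at a summed level of 412 against 643 FPKM. Of the markers of other cells, Pax7, Myog, Ppbp and Gp9 were at 0 in both libraries and Ptprc, Adgre1 and Cdh5 were below 0.1 FPKM. Others were clearly present with PRP and in the control, namely Kdr at 4.23 and 1.5, Tek at 4.73 and 3.56, Cd68 at 4.56 and 2.31, Lyz2 at 4.91 and 7.57, Des at 2.91 and 3.39 and Acta1 at 15.1 and 11.1 FPKM. Summed levels with PRP and in the control were 10.3 and 10.6 FPKM for macrophage and leukocyte markers, 9.39 and 5.29 FPKM for endothelial markers, 18.0 and 14.6 FPKM for myogenic markers, and 1.68 and 1.76 FPKM for platelet and erythroid markers. The part of these marker differences in the clock genes was not tested, and in bulk RNA a smaller share of cells and less RNA per cell cannot be told apart.

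The REV-ERB genes were higher in the PRP library, as were Cry1 and Tef, while Dbp and the low-level Per3 were lower and the intervals of Per1, Per2, Clock and Cry2 included no change. Of the 10 genes, 5 were higher and 5 were lower. Counting intervals excluded no change for 6 genes, of which Nr1d1, Nr1d2, Cry1 and Tef were higher and Dbp and Per3 were lower. Per3 had a mean below 1 FPKM, which left 9 tested genes. Of these 9, intervals excluded no change for 5 (55.6%), against 52.3% of the 12369 tested genes with an interval, so this share was near that of all genes. By direction, the interval lay above 1 for 4 of the 9 and below 1 for 1, against 26.2% and 26.1% of all genes. On the log2(FPKM + 1) scale 0 of the 9 genes differed by at least 2-fold, against 2.83% of 13401 tested genes (2.00% higher and 0.828% lower). One gene, Nr1d1, differed by at least 1.5-fold (11.1% of the 9), against 10.7% of tested genes (6.15% higher and 4.57% lower). Without the pseudocount, 1 gene differed by at least 2-fold, against 5.94% of tested genes, and 2 genes, Nr1d1 and Cry1, by at least 1.5-fold, both higher, against 17.3% of tested genes in either direction and 9.64% higher. Among the 4050 genes with a mean of 2.5 to 7.5 FPKM, intervals excluded no change for 47.5%. All of the 9 tested clock genes but Per2 (mean 1.08 FPKM) lay in that range, so the 55.6% also covers a gene outside it. The interval of Per2 included no change, so the share of the clock genes within that range was higher than 55.6%. The median log2 fold change of the 9 genes was 0.05, against 0.01 over all tested genes, and with Per3 included the median of all 10 was -0.03.

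**Figure D1:**
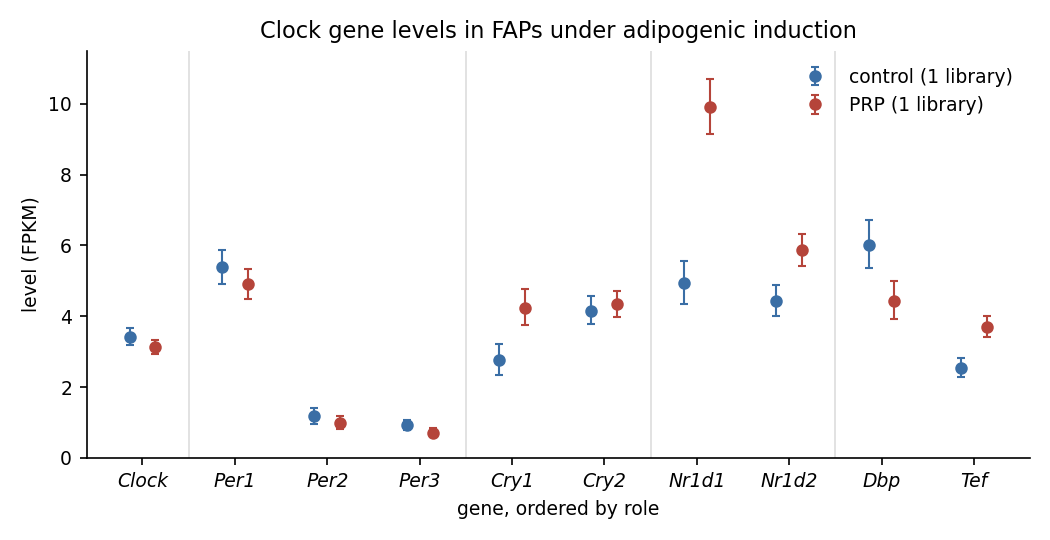
Level in FPKM (vertical axis) of the 10 clock genes (horizontal axis, in order of role) in the control library (blue) and the PRP library (red), 1 library each. Bars are exact 95% Poisson intervals for counting error. Nr1d1 stands highest in the PRP library at 9.92 FPKM, and Per2 and Per3 are lowest in both libraries.

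Nr1d1, which encodes REV-ERBα, showed the largest difference of the 10 genes. Nr1d1 (ENSMUSG00000020889, chromosome 11, 98767932 to 98775333, minus strand of GRCm38) had 9.92 FPKM with PRP and 4.93 FPKM in the control. This was a ratio of 2.01 (95% interval 1.74 to 2.33; 1225 and 518 reads). On the log2(FPKM + 1) scale the fold change was 0.88, and 3.99% of all tested genes differed at least as much in either direction. A ratio of at least 2 without the pseudocount was reached by this 1 gene of the 9, against 3.78% of all tested genes. The last exon of Nr1d1 runs into that of Thra, a thyroid hormone receptor gene on the opposite strand. They share 263 bases, 8.55% of the exon length of Nr1d1, and the strand setting of the read counting is not given in the sources used here. Thra differed in the opposite direction, with 7.13 FPKM with PRP against 10.5 FPKM in the control (ratio 0.681, interval 0.614 to 0.756).

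Nr1d2, the gene of REV-ERBβ (ENSMUSG00000021775, chromosome 14, 18204054 to 18239127, minus strand), had 5.86 FPKM with PRP and 4.42 FPKM in the control. Its ratio of 1.33 (interval 1.17 to 1.5, 1271 and 816 reads) was in the direction of Nr1d1 but smaller, and the intervals of the ratios of these paralogs did not overlap. Nr1d1 therefore went from 1.12 times the level of Nr1d2 in the control library to 1.69 times in the PRP library. Together the REV-ERB genes held 15.8 FPKM with PRP and 9.35 FPKM in the control, a ratio of 1.69.

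Arntl encodes BMAL1 and is the textbook target of REV-ERB repression. It had 4.08 FPKM with PRP and 3.22 FPKM in the control (ratio 1.27, interval 1.12 to 1.44), so it was higher in the same library as Nr1d1 and Nr1d2. Its partner Clock (ENSMUSG00000029238, chromosome 5, 76209868 to 76304792, minus strand) had 3.12 FPKM with PRP and 3.42 FPKM in the control. The ratio of 0.912 had an interval of 0.828 to 1.01 that included no change, from 1720 and 1604 reads. This interval lay below that of Arntl, and the level of Clock relative to Arntl was 0.765 with PRP and 1.06 in the control. Npas2, a paralog that can stand in for CLOCK, had 1.27 against 1.28 FPKM (ratio 0.989, interval 0.755 to 1.30).

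Among the repressors of the first loop, the cryptochrome genes differed from each other. Cry1 (ENSMUSG00000020038, chromosome 10, 85131700 to 85185064, minus strand) had 4.24 FPKM with PRP and 2.75 FPKM in the control. Its ratio of 1.54 (interval 1.26 to 1.88, 568 and 314 reads) was the second highest of the 10 genes, and its log2 fold change of 0.48 was equalled or exceeded by 16.1% of tested genes. Cry2 (ENSMUSG00000068742, chromosome 2, 92403646 to 92434043, minus strand) had 4.34 FPKM with PRP and 4.15 FPKM in the control. The ratio of 1.04 had an interval of 0.920 to 1.19, which includes no change and leaves out the interval of Cry1. Cry1 thus stood at 0.663 of the level of Cry2 in the control library and at 0.977 in the PRP library.

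The Per genes all had lower values in the PRP library, beyond counting error for Per3 alone. Per1 (ENSMUSG00000020893, chromosome 11, 69095217 to 69109960, plus strand) had 4.91 FPKM with PRP and 5.38 FPKM in the control. Its ratio was 0.912 (interval 0.807 to 1.03, 1109 and 1035 reads), within counting error. Per2 (ENSMUSG00000055866, chromosome 1, 91415982 to 91459324, minus strand) had 0.996 FPKM with PRP and 1.17 FPKM in the control. It had 234 reads in each, a ratio of 0.851 after correction for depth, and an interval of 0.653 to 1.11 that included no change. Per3 (ENSMUSG00000028957, chromosome 4, 151003652 to 151044665, minus strand) had 0.700 FPKM with PRP and 0.921 FPKM in the control. Its ratio of 0.761 had an interval of 0.599 to 0.966, from 270 and 302 reads, just clear of no change. The intervals of all 3 Per genes overlapped, and whether their ratios differed was not tested. Per1 was the main Per transcript, at 4.93 times the level of Per2 in the PRP library and 4.60 times in the control library.

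The output factors Dbp and Tef went in opposite directions. Dbp (ENSMUSG00000059824, chromosome 7, 45705088 to 45710203, plus strand) had 4.43 FPKM with PRP and 6.01 FPKM in the control, where it was the highest of the 10 genes. That gave a ratio of 0.737 (interval 0.623 to 0.872, 532 and 614 reads). Tef (ENSMUSG00000022389, chromosome 15, 81802421 to 81826863, plus strand) had 3.69 FPKM with PRP and 2.54 FPKM in the control. Its ratio was 1.45 (interval 1.27 to 1.67, 1166 and 682 reads). Dbp stood at 2.37 times the level of Tef in the control library and at 1.20 times in the PRP library, while their summed level was 8.12 against 8.55 FPKM. Dbp and Nr1d1, both textbook E-box targets of CLOCK and BMAL1, also differed in opposite directions. Dbp shares 539 bases (18.0% of its exon length) with the opposite-strand gene Sphk2, which had 4.11 against 4.65 FPKM (ratio 0.883, interval 0.756 to 1.03). Hlf, the other PAR bZIP gene, was low in both libraries, at 0.306 and 0.281 FPKM.

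**Figure D2:**
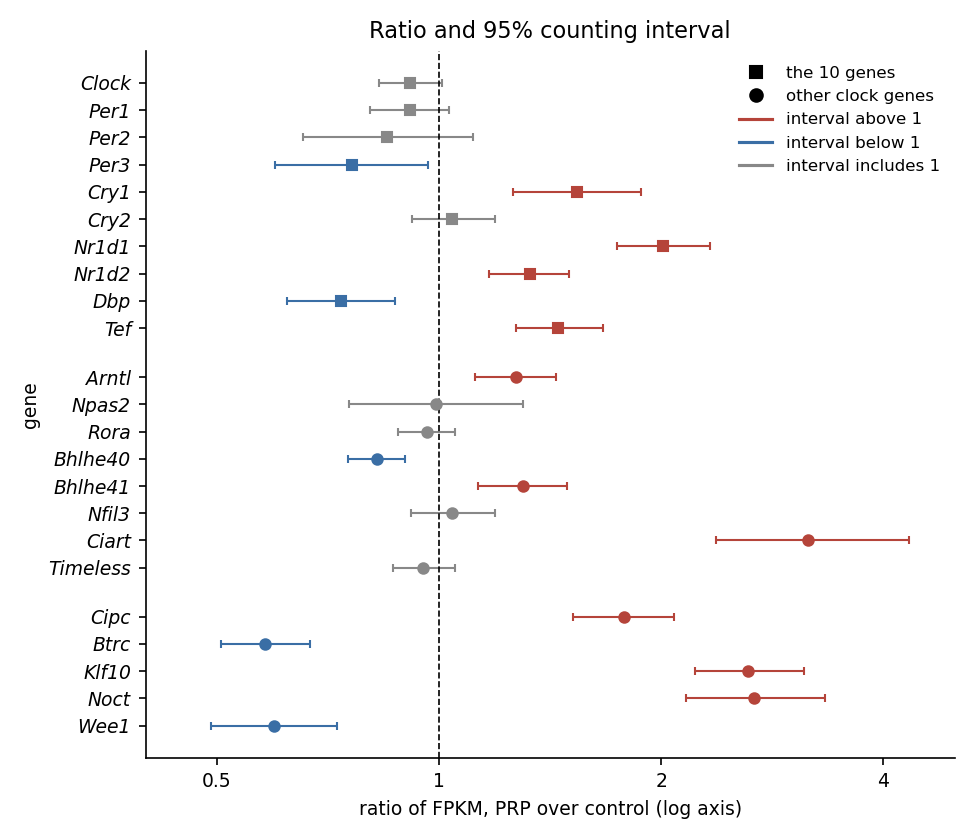
Ratio of FPKM, PRP over control (horizontal log axis), with exact 95% counting intervals, for the 10 clock genes (squares) and other clock genes (circles). Red intervals lie above 1, blue intervals below 1 and grey intervals include 1. Nr1d1 at 2.01 leads the 10 genes, and Ciart at 3.16 lies above all of them.

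The order of the levels differed between the libraries. In the PRP library Nr1d1 came first and Nr1d2 second, each with a counting interval clear of the next gene. Per1, Dbp, Cry2, Cry1 and Tef followed between 4.91 and 3.69 FPKM, and the intervals of neighbours among them overlapped. Clock came next at 3.12 FPKM, and Per2 and Per3 came last with overlapping intervals. In the control library Dbp, Per1, Nr1d1, Nr1d2 and Cry2 led between 6.01 and 4.15 FPKM, with overlapping intervals between neighbours. Clock, Cry1 and Tef followed between 3.42 and 2.54 FPKM, also with overlap between neighbours, and Per2 and Per3 were again last. Overlap of intervals does not show that levels are equal, and differences between neighbours were not tested. Nr1d1 moved from rank 3 in the control library to rank 1 in the PRP library, and Dbp moved from rank 1 to rank 4. The summed level of the 10 genes was 42.2 FPKM with PRP and 35.7 FPKM in the control.

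**Figure D3:**
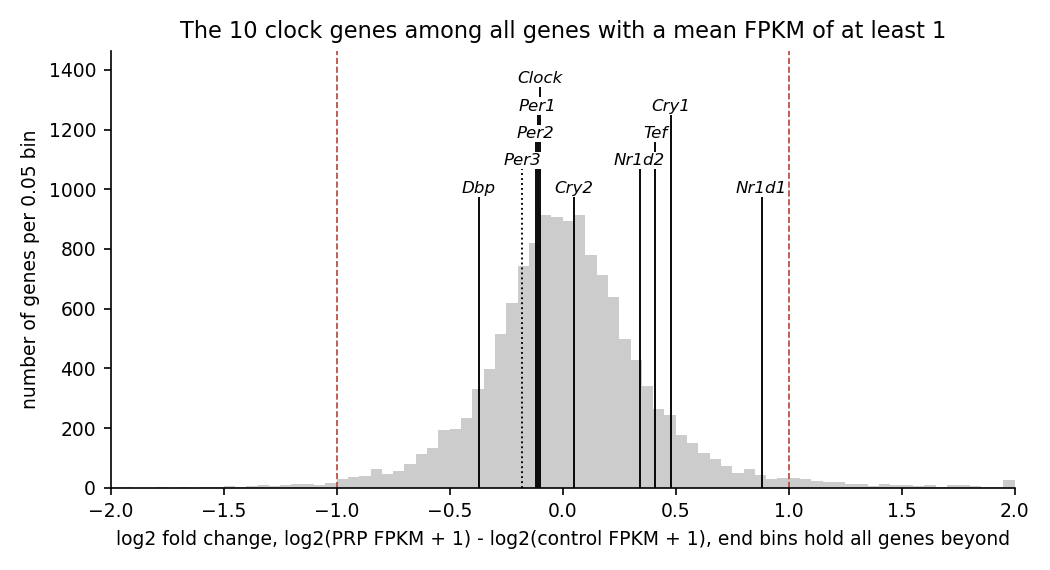
Number of genes (vertical axis) by log2 fold change on the log2(FPKM + 1) scale (horizontal axis, end bins hold all genes beyond), for the 13401 tested genes, with the 10 clock genes as labelled lines. Per3, dotted, lies below that filter, and dashed red lines mark 2-fold. Nr1d1 at 0.88 lies nearest to 2-fold, and Clock and the Per genes lie near the centre.

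Promoter sequences were searched for the elements through which clock proteins and cAMP act. The windows are those of RefSeq on GRCm38.p6, from 250 bases before to 50 bases after a start site. The table used has 13 windows for 9 of the 10 genes, and none for Per2. Each motif was searched on both strands, namely the E-box CACGTG, the related E'-box CACGTT, the D-box TTANGTAA, the core of the REV-ERB and ROR element TAGGTCA and the cAMP response element TGACGTCA. An E-box was present in 4 of the 13 windows (Per1, Cry1 and both windows of Tef), against 7.15% of all 32851 windows. An E'-box was present in 3 windows (Cry1, Cry2 and Nr1d1), against 4.68% of all windows, and a D-box in 1 window, that of Per3, which held it at 2 positions, against 2.32%. None of the 13 windows held TAGGTCA or TGACGTCA, which 2.61% and 1.79% of all windows hold. The windows of Clock, Nr1d2 and Dbp held none of these letters. These matches are a description of short windows, and clock elements are known to lie outside them as well.

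The windows of Nr1d1 and Cry1, the genes with ratios of at least 1.5, are shown whole with the motif matches in capitals. That of Nr1d1 is chr11:98775328-98775627 and that of Cry1 is chr10:85185005-85185304, both on the minus strand and written 5′ to 3′.
Nr1d1 promoter: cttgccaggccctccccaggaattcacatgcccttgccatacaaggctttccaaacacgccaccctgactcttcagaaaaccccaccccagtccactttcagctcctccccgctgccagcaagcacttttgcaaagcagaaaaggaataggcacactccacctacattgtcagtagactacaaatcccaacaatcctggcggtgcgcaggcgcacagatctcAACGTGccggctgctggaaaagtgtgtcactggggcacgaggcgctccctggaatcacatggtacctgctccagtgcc
Cry1 promoter: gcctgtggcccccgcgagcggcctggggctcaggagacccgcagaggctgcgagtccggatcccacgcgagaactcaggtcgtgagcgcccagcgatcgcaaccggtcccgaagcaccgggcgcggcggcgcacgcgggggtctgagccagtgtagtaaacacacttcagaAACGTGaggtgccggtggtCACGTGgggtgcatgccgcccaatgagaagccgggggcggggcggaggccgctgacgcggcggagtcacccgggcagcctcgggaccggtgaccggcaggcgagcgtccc

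The E-boxes of Per1 and Tef and the D-boxes of Per3 are shown in short stretches, with the motif in capitals, to set them beside these windows. They lie at chr11:69098771-69098800 (Per1, plus strand), chr15:81802534-81802563 and chr15:81811264-81811293 (Tef, plus strand), and chr4:151044851-151044882 and chr4:151044804-151044835 (Per3, minus strand).
Per1 E-box: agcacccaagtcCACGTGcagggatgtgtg
Tef E-box of the first window: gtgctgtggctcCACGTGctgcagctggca
Tef E-box of the second window: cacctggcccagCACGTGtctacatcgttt
Per3 first D-box: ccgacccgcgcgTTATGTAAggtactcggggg
Per3 second D-box: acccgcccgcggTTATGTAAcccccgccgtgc

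Of the clock genes with an E-box in these windows, Cry1 and Tef were higher in the PRP library beyond counting error. The interval of Per1 included no change, so its direction is not known. A link between these motifs and the differences was not tested. Per3, with both D-boxes, was lower together with the D-box activator gene Dbp, whereas Tef, the other D-box activator among the 10 genes, was higher. Nfil3, which encodes the D-box repressor E4BP4, had 12.9 against 12.3 FPKM (ratio 1.04, interval 0.915 to 1.19).

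The study names let-7f and miR-16 as cargo of the exosomes, so the 3'UTRs of the 10 genes were searched for their seed matches. The mature mouse sequences in RefSeq (GRCm38.p6) are shown with the seed, bases 2 to 8, in capitals.
mmu-let-7f-5p: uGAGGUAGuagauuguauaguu
mmu-miR-16-5p: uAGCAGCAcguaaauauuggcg

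With the longest annotated 3'UTR taken per gene from GENCODE M21, the let-7 match CTACCTC was present in 2 of the 10 genes, Per1 and Cry2, and the miR-16 match TGCTGCT in 5, Clock, Per2, Per3, Cry2 and Nr1d2. Of 10365 tested genes with a 3'UTR, 11.2% held the let-7 match and 27.1% the miR-16 match. Clock had 4 miR-16 matches in the longest 3'UTR of the set, 6831 bases, of which a pair overlap. At least 1 match was held by 6 of the 10 genes, against 33.5% of those tested genes, whose median 3'UTR of 1315 bases was shorter than that of each gene with a miR-16 match (1889 to 6831 bases). Of these 6 genes, Nr1d2 was higher and Per3 lower beyond counting error, and the intervals of the other 4 included no change. Cry1, Nr1d1, Dbp and Tef held neither, and the 3'UTRs of Nr1d1 and Dbp are short, at 288 and 323 bases. For Per1 and Per3, a site is shown with its match in capitals, and the interval of Per1 included no change.
Per1 let-7 match: atccatggacccctCTACCTCtcctctg
Per3 miR-16 match: gacatcgaaggaggTGCTGCTcggaccc

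The other genes of the clock pathway were examined as 3 lists, of which 26 of 35 genes were tested. On the log2(FPKM + 1) scale 4 of the 26 (15.4%) differed by at least 1.5-fold, against 10.7% of all tested genes, and 2 of these, Ciart and Klf10, by at least 2-fold (7.69%), against 2.83%. These 4 were higher in the PRP library. Without a pseudocount 6 of the 26 differed by at least 1.5-fold, against 17.3% of all tested genes, and of these Btrc and Wee1 were lower. The median log2 fold change of the 26 was 0.05. Of the 8 tested core factors outside the 10 genes, 4 were higher and 4 were lower. Ciart, which encodes the CLOCK-BMAL1 repressor CHRONO, had 4.80 FPKM with PRP and 1.52 FPKM in the control (ratio 3.16, interval 2.37 to 4.33). That was a larger ratio than any of the 10 genes. Outside the 10 genes, promoter windows were searched for Ciart and Arntl alone. The Ciart window held 3 E-boxes, where 7.15% of all windows hold an E-box. A window of Arntl held the REV-ERB and ROR core TAGGTCA, which 2.61% of all windows hold. A link between these matches and the differences was not tested. The E-box repressor genes Bhlhe40 and Bhlhe41, which encode DEC1 and DEC2, differed in opposite directions, with ratios of 0.823 (interval 0.753 to 0.900) and 1.30 (interval 1.13 to 1.49). Rora, an activator of Arntl, had a ratio of 0.963 (interval 0.879 to 1.05).

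Kinases, ubiquitin ligases and related regulators of clock proteins were next, with 5 of 8 tested genes higher and 3 lower. Cipc, which encodes an inhibitor of CLOCK, had 5.27 FPKM with PRP and 2.96 FPKM in the control (ratio 1.78, interval 1.52 to 2.08). Btrc, a ubiquitin ligase subunit that marks PER proteins for degradation, had 1.03 against 1.78 FPKM (ratio 0.581, interval 0.506 to 0.668). Of 10 tested clock-controlled output genes, 5 were higher and 5 were lower. Klf10, a transcription factor gene that also responds to TGF-β, had 6.79 against 2.59 FPKM (ratio 2.62, interval 2.22 to 3.12). Noct, which encodes the rhythmic phosphatase nocturnin, had 1.67 against 0.627 FPKM (ratio 2.67, interval 2.16 to 3.33). Wee1, a mitotic kinase gene, had 2.61 against 4.37 FPKM (ratio 0.597, interval 0.491 to 0.726).

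Because the medium contained IBMX and dexamethasone, genes known to respond to cAMP and glucocorticoid were set beside Per1. Both libraries had the same IBMX and dexamethasone, so these values are differences between PRP and control and measure no response to either compound. Whether cAMP or glucocorticoid input differed with PRP was not tested. Of 13 cAMP and CREB response genes 4 were tested, of which 3 were higher and 1 was lower, with a median log2 fold change of 0.45. Fos had 3.23 against 1.76 FPKM (ratio 1.84, interval 1.38 to 2.49) and Nr4a2 had 2.52 against 1.31 FPKM (ratio 1.93, interval 1.51 to 2.51). Rgs2, just under the filter, differed in the opposite direction, with 0.412 against 1.58 FPKM. The other genes of this list under the filter all had higher values with PRP. Among them, the intervals of Nr4a3, Fosb and Ppargc1a lay above 1, at ratios of 1.56, 1.76 and 1.67. The intervals of Nr4a1 (ratio 1.34), Pde4b, Pde4d, Pde10a and Areg included no change. Of 11 tested glucocorticoid response genes 7 were higher and 4 were lower, with a median of 0.36. Fkbp5, a glucocorticoid receptor co-chaperone gene, had 7.62 against 12.4 FPKM (ratio 0.614, interval 0.574 to 0.658). Per1, known to respond to both inputs, had a log2 fold change of -0.11, with an interval that included no change. That value was below the medians of both lists. Crem of the cAMP list also had -0.11, and the 4 lower glucocorticoid genes lay further down, from -0.17 for Tsc22d3 to -0.64 for Fkbp5.

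**Figure D4:**
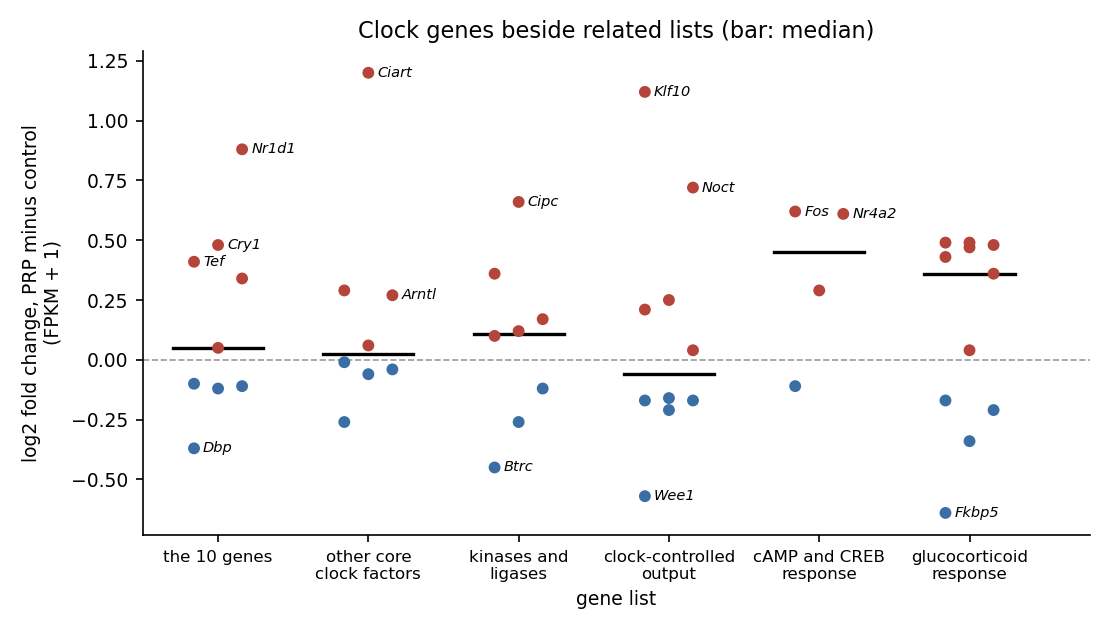
Log2 fold change on the log2(FPKM + 1) scale (vertical axis) of the tested genes in 6 lists (horizontal axis), higher genes in red, lower genes in blue and the list median as a bar. Per3 is not shown as it lies below that filter. The medians of the 9 tested clock genes and of the other core factors lie near 0, at 0.05 and 0.02.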

How the data were processed

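The reads were trimmed with fastp 0.23.4, aligned to mm10 with STAR 2.5.3a and counted per gene with featureCounts by the authors, per the labels, and FPKM values were deposited for 1 PRP and 1 control library. The annotation release is not given in the sources used here. Summed exon lengths of GENCODE M21 (GRCm38) turned FPKM into whole reads, within 0.001 reads, for 93.8% of 28160 genes above 0 with a length, all 10 clock genes among them. Even read numbers were in excess (79.3% and 80.3% of genes with up to 8 reads), so intervals used reads divided by 2, rounded down. The recovered reads served for depth and intervals alone. The members and lists were chosen with earlier results of these data known. Named genes are the 10 members, Arntl and, of each related list, up to 4 genes with a ratio of at least 1.5 in either direction. Other genes were named after their values were seen. Genes with the most similar pattern were not sought, since 2 libraries give 1 difference per gene. Alternatives were other pseudocounts, filters and scalings. Read recovery and intervals were tested on simulated data of 28160 genes, where 95.9% of intervals held the true ratio. The simulated fragments were drawn from a Poisson model, which the intervals also assume. The simulation therefore checks the calculation and not whether the model holds for these libraries. Python 3.11.15, NumPy 2.4.6, pandas 2.3.3, SciPy 1.17.1 and matplotlib 3.10.9 were used.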

Additional observations from a re-analysis of the deposited data

How the results depend on the processing

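With 1 library per group no difference has a replicate check, and intervals take no account of PCR duplicates. No paired analysis was possible because the treatments have 1 sample apiece. A change of pseudocount or filter cannot reverse the sign of a difference, so only the rescalings, among them centring on the median gene, could have. All 10 clock genes kept their direction under these rescalings. Of the 74 values that the 8 alternatives gave, 72 moved by less than 0.5 of the width of the gene's counting interval on the log2 scale. The exceptions were Nr1d1 at 0.59 and Tef at 0.21 with a pseudocount of 5. A stricter filter, a mean FPKM of 5, left 4 clock genes. No pseudocount was an alternative chosen after seeing the data.

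Clock genes that differed 2-fold numbered 1 without a pseudocount, against 0. Those that differed 1.5-fold numbered 2 with a pseudocount of 0.1 and 2 without one, against 1. The 1.5-fold share of all tested genes rose as well, to 16.4% at a pseudocount of 0.1 and 17.3% without one, against 10.7%. Tested genes that differed 2-fold numbered 739 (5.51%) at a pseudocount of 0.1 and 113 (0.843%) at 5, 210 (2.99%) under the stricter filter and 796 (5.94%) without a pseudocount, against 379. Other clock-pathway genes that differed 2-fold numbered 0 at a pseudocount of 5 and 0 under the stricter filter, against 2. Those that differed 1.5-fold numbered 2 and 0, against 4. Of all tested genes 3.90% and 10.7% differed 1.5-fold at these settings, against 10.7%. Under the stricter filter 7 of 13 other clock-pathway genes were higher, against 14 of 26. At a pseudocount of 0.1 or none, 6 of the 26 other clock-pathway genes differed 1.5-fold, 4 higher and 2 lower (Btrc and Wee1). The share of all tested genes at these settings was 16.4% and 17.3%. After rescaling to a common sum, 5 of the 26 differed 1.5-fold, with Wee1 lower, against 10.8% of tested genes. Rescaling without mitochondrial and the 50 most abundant genes also gave 5, with Wee1 lower, against 10.7%. Centring on the median gene gave 4, with 0 lower. The median of the clock genes was -0.03 with no filter, against 0.05. A larger pseudocount shrinks all fold changes, and the stricter filter tests fewer genes.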
